A study of Sus scrofa with 18 samples.

Results

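SAG encodes rod arrestin and CNGA1 encodes the alpha subunit of the rod cyclic GMP gated channel, both proteins of the light response of rod photoreceptors. They were taken by name, as all probe sets of the pig array with SAG or CNGA1 as single gene symbol in the platform annotation. This rule uses no measured value, but the genes themselves were chosen with earlier results of these data known. SAG (NCBI gene 397151) and CNGA1 (NCBI gene 397366) had 1 probe set each, so that they are 2 of 6765 genes with a single symbol, and both are among the 5710 genes bright enough to be tested. The retinas were taken at postnatal day 38 from 18 piglets, all male and all crosses of Landrace x Large White. From an enrolment age of 3 days, 9 piglets received milk replacer containing sialyllactose, an oligosaccharide of milk in which sialic acid is linked to lactose, and 9 received milk replacer alone (control), with placement at random per the labels. Each sample was 1 Affymetrix array of total RNA from a retina. No litter, array batch or scan date is given in the labels.

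In darkness, cyclic GMP holds the rod channel open and a steady inward current flows into the rod outer segment. Light activates rhodopsin, which through transducin and phosphodiesterase lowers cyclic GMP, so that the channel closes and the rod hyperpolarises. Rhodopsin kinase then phosphorylates the active rhodopsin, and rod arrestin binds to it and ends its signalling. The channel therefore carries the electrical response and arrestin switches off its source. Inherited loss of CNGA1 is a cause of retinitis pigmentosa in humans, and loss of SAG is a cause of Oguchi disease, a form of stationary night blindness.

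SAG was among the brightest probe sets of the retina and varied more between piglets than most probe sets of like level. Values are log2 RMA signals, where RMA is the summary of the probes of a probe set on a scale shared by all arrays, and 1 unit is a doubling. In sialyllactose retinas the lowest SAG value was 10.25, the median 10.58 and the highest 10.74, and in control retinas the lowest was 10.51, the median 10.69 and the highest 10.81. The groups overlapped over most of their range: 7 of 9 sialyllactose retinas lay below the control median, 2 of them (replicates 3 and 8) lay below every control retina, and 2 control retinas lay above every sialyllactose retina. The mean was 10.56 ± 0.17 in sialyllactose and 10.66 ± 0.10 in control retinas (SD, n = 9 each). From the dimmest to the brightest retina, SAG spanned 1.47-fold over all 18 piglets, 1.41-fold in the sialyllactose group and 1.23-fold in the control group. Only 20 of 16799 tested probe sets had a higher mean, which places SAG at the 99.9 percentile. Its SD within diet was 0.14, against a median of 0.16 over all tested probe sets and 0.09 over the 200 probe sets nearest to it in level, of which 81.5 percent had a smaller SD.

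CNGA1 differed more from piglet to piglet on the log2 scale. In sialyllactose retinas its lowest value was 3.23, the median 3.43 and the highest 3.88, and in control retinas the lowest was 2.32, the median 3.27 and the highest 3.74. Here 7 of 9 sialyllactose retinas lay above the control median and 1 (replicate 6) lay above every control retina, while 4 control retinas (replicates 1, 2, 4 and 9) lay below every sialyllactose retina. The mean was 3.47 ± 0.21 in sialyllactose and 3.19 ± 0.45 in control retinas (SD, n = 9 each). Over all 18 retinas CNGA1 spanned 2.94-fold, with 1.57-fold in the sialyllactose group and 2.67-fold in the control group. Its level stood at the 40.0 percentile of tested probe sets and its SD within diet of 0.35 at the 97.2 percentile. Among the 200 probe sets nearest to it in level the median SD was 0.17, and 96.5 percent of them varied less than CNGA1. The signals of these probe sets are not set against each other as amounts of RNA, because probes differ in how well they bind.

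**Figure D1:**
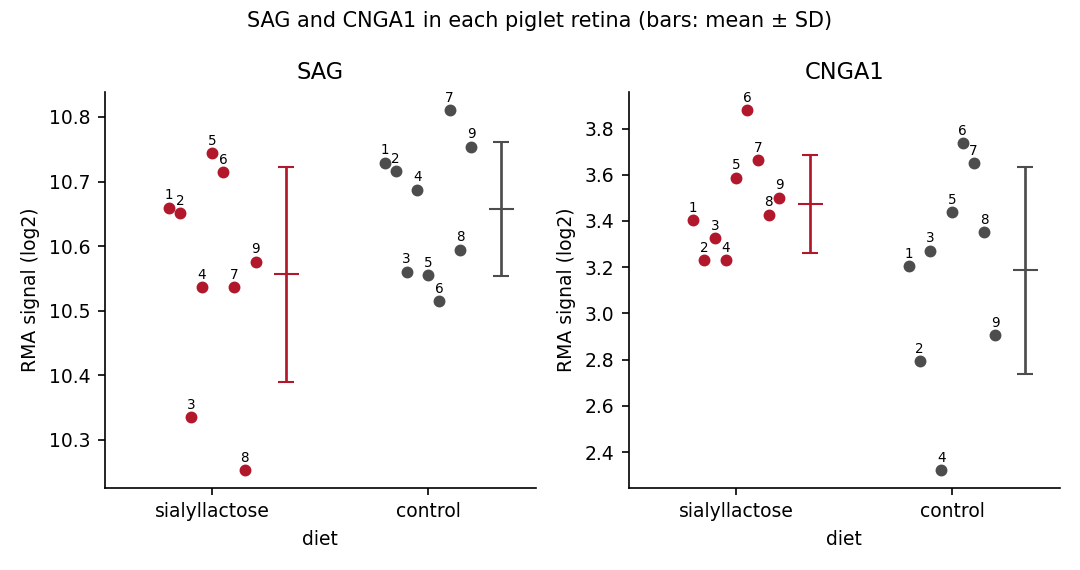
Log2 RMA signal (vertical axes, scaled separately) of SAG and CNGA1 in each retina by diet; numbers are replicate numbers, and the bars beside the points are mean ± SD (n = 9 per diet). The diets overlap for both genes, SAG has its 2 lowest retinas (10.25 and 10.33) in the sialyllactose group, and CNGA1 has its lowest retina (2.32) in the control group.

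The question of the diet comparison was whether these rod genes differ in level when sialyllactose is added, and neither difference passed the test. SAG differed by -0.10 on the log2 scale, sialyllactose minus control (95% confidence interval -0.24 to 0.04, SE 0.07), a fold of 0.932 (0.847 to 1.03). Its limma p was 0.138 before and 0.841 after Benjamini-Hochberg adjustment over 16799 probe sets, and an exact two-sided permutation of the diet labels gave p = 0.143. CNGA1 differed by 0.29 (95% confidence interval -0.02 to 0.59, SE 0.15), a fold of 1.22 (0.985 to 1.51). Its limma p was 0.067 unadjusted and 0.783 adjusted, and the exact two-sided permutation gave p = 0.10. The 2 genes of the same cascade thus had differences of opposite sign, and neither passed. The intervals reach a fold of 0.847 for SAG and of 1.51 for CNGA1, so differences up to that size are not excluded by these retinas.

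Of all tested probe sets 0.00% passed at an adjusted limma p under 0.05, where the lowest adjusted p was 0.691, and 6.30% (1059 of 16799) had an unadjusted p under 0.05, among them neither SAG nor CNGA1. The median difference over all tested probe sets was -0.01 and the median size of a difference was 0.05. The size of the CNGA1 difference stood at the 99.2 percentile of all probe sets and that of SAG at the 77.4 percentile, as a description of size that does not take their spread into account. Quantile normalization over the tested probe sets moved the SAG difference to -0.045 (limma p 0.447). Single retinas also moved these values: the SAG difference was -0.06 without sialyllactose replicate 8, and the CNGA1 difference was 0.18 without control replicate 4. A whole retina was measured, so fewer rods and less RNA per rod cannot be told apart.

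The spread between retinas within a diet also differed in opposite ways for these genes, and neither ratio passed its test. The SD of SAG in sialyllactose retinas was 1.60 times that in control retinas (exact two-sided permutation of mean absolute deviations, p = 0.391). For CNGA1 the SD in sialyllactose retinas was 0.477 times that in control retinas (same exact test, p = 0.137). The wider CNGA1 spread in controls came with a long lower end, where replicates 2, 4 and 9 measured 2.79, 2.32 and 2.91 and every other retina of either diet measured 3.21 or more.

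No relation between SAG and CNGA1 was detected from retina to retina. On deviations from the diet mean over 18 retinas, Pearson's r was -0.03 (permutation p = 0.897, adjusted p = 0.937) and Spearman's rho was -0.04 (permutation p = 0.863, adjusted p = 0.892), with adjustment over the 31 relations computed. Without the 2 retinas farthest from the median of SAG, r was -0.14. In sialyllactose retinas alone r was 0.37 (exact permutation p = 0.332) and rho 0.38 (exact p = 0.318), and in control retinas alone r was -0.34 (exact p = 0.373) and rho -0.37 (exact p = 0.336). Adjusted over the 62 relations within a diet, these exact p-values were 0.846 for each r and 0.844 for each rho. The sign was positive within the sialyllactose group and negative within the control group, and the difference between the diets was not tested. Control replicate 6 joined the lowest SAG of its group to the highest CNGA1, whereas control replicate 7 had the highest SAG of its group and the next highest CNGA1. Against the r of SAG with each of 5709 other genes, the size of its r with CNGA1 stood at the 7.76 percentile.

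**Figure D2:**
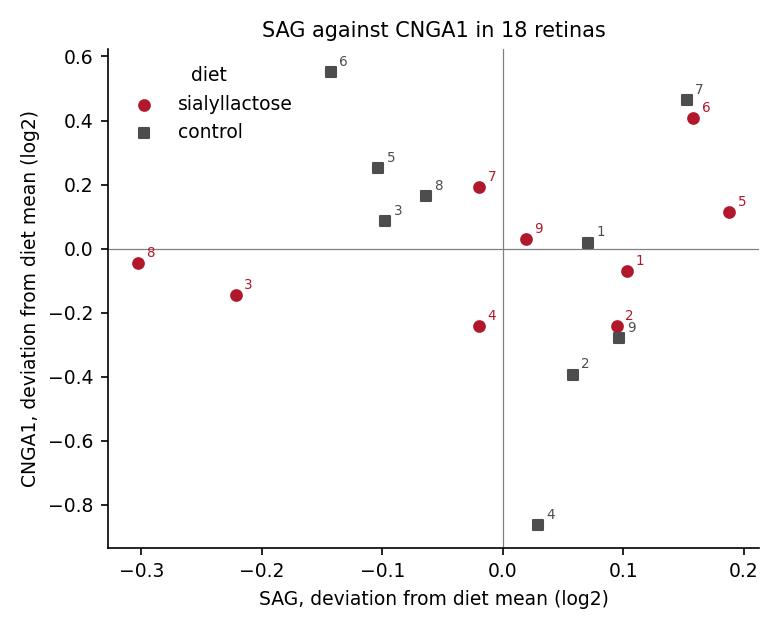
Each retina's CNGA1 (vertical axis) against its SAG (horizontal axis), both as deviations from the mean of its diet in log2 units, with replicate numbers. The points form no line, with r of -0.03 over 18 retinas, 0.37 in the sialyllactose group and -0.34 in the control group.

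The genes whose levels ran most like SAG were ranked over the 5709 other named genes by r of deviations from the diet mean over 18 retinas, as a description without a p. Highest was MRPS9, a protein of the mitochondrial ribosome, with r of 0.78 and rho of 0.78. Next came SYS1, which takes part in protein targeting to the Golgi apparatus (r 0.77, rho 0.70), and TTC39C (r 0.77, rho 0.71). CITED1, a transcriptional coregulator, had r of 0.75, and GTF2H3, a subunit of the general transcription and repair factor TFIIH, also had 0.75. FZD4, a Wnt and norrin receptor needed for retinal blood vessels, reached 0.74, TNIP1, an inhibitor of NF-kappa-B signalling, 0.72, and SF3B2, a splicing factor, 0.71. None of these 8 belongs to the phototransduction lists. Only 2 of 26 listed rod genes and 4 of 11 listed cone genes were in the ranking, so this absence says little.

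The lowest r with SAG were -0.77 for AGPAT4, an acyltransferase of phospholipid synthesis, and -0.74 for both KLF10, a zinc finger transcription factor, and NRBF2, a component of the autophagy machinery. TAF13, a subunit of the general transcription factor TFIID, followed at -0.72. The 8 highest genes held a positive r in each diet taken alone, between 0.68 and 0.92 in sialyllactose and between 0.51 and 0.93 in control retinas. Because they were ranked on both diets together, this sign in each diet follows in part from the choice. Between the diets, 5 of the 8 were higher and 3 lower in sialyllactose retinas, none passed the limma test, and the smallest unadjusted p was 0.319.

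For CNGA1 the highest r was that of PCF11, a factor of messenger RNA cleavage at the 3′ end, at 0.80 (rho 0.76). It was followed by ARRDC4, a member of the alpha-arrestin family that is only distantly related to SAG (r 0.71, rho 0.72), and TTYH2, a membrane protein of the tweety family (r 0.70, rho 0.70). PEX13, part of the import machinery of peroxisomes, had r of 0.66, USP28, a deubiquitinating enzyme, 0.65, RAB4B, a GTPase of endosomal recycling, 0.64, GUCD1 0.64 and PRPF38A, a splicing factor, 0.63. The lowest were RBM25, a splicing regulator, at -0.80 (rho -0.83) and UBE2V1, a partner of ubiquitin-conjugating enzymes, at -0.78. LOC100516665 and LOC100520426, which the annotation gives no other name, both stood at -0.71.

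The r of these 8 highest genes was higher in control than in sialyllactose retinas. The ranking pooled both diets and CNGA1 was more spread in controls, which weigh more in it, so this order follows in part from the choice. Their r lay between 0.16 and 0.61 in sialyllactose and between 0.74 and 0.95 in control retinas, and that difference between the diets was not tested. PCF11, for example, had r of 0.30 in sialyllactose and 0.95 in control retinas. RBM25 kept a strong negative r in each, at -0.71 in sialyllactose and -0.88 in control retinas. Between the diets, 3 of the 8 were higher and 5 lower in sialyllactose retinas, none passed the limma test, and the smallest unadjusted p was 0.0997, that of ARRDC4.

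**Figure D3:**
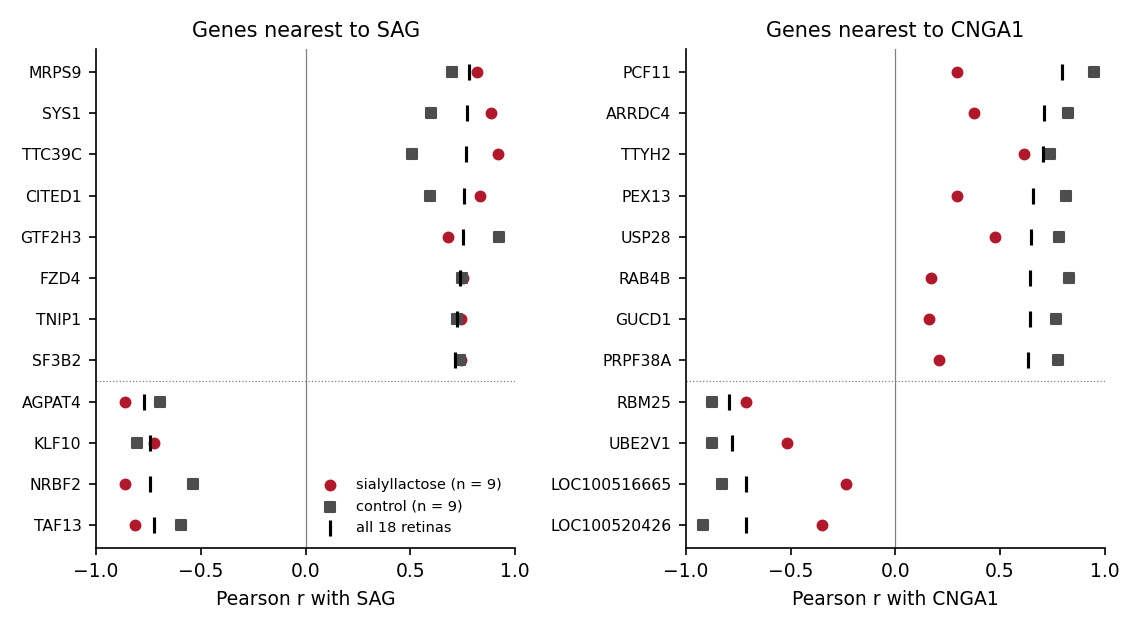
Pearson r (horizontal axes) of the 8 genes with the highest and the 4 with the lowest r with SAG and with CNGA1, in sialyllactose retinas (circles), control retinas (squares) and over all 18 retinas on deviations from the diet mean (ticks). Genes above the dotted line have the highest r; those of SAG reach at least 0.51 in each diet, and those of CNGA1 lie between 0.16 and 0.61 in sialyllactose retinas and between 0.74 and 0.95 in control retinas.

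With 18 retinas and 5709 candidate genes, a best r of this height was usual. Over 5710 genes the median of each gene's own best r was 0.80, and SAG stood at the 33.7 percentile and CNGA1 at the 45.3 percentile of that measure. The eighth best r was 0.71 for SAG, near the median of 0.71 over all genes, and 0.63 for CNGA1, at the 2.68 percentile. SAG had 97 genes (1.70%) and CNGA1 56 genes (0.981%) with r above 0.6 in size, against 2.16% over all pairs of genes. Each gene therefore had fewer such companions than the average gene. The ranking took 1 probe set a gene and named genes only, and 6 probe sets outside it, 2 of them named, had a higher r with SAG than any ranked gene. Highest was a dimmer probe set of SLC26A11 with r of 0.89 (0.92 in sialyllactose and 0.84 in control retinas), whereas the brightest SLC26A11 probe set had r of 0.35. For CNGA1 there was 1 such probe set, which is unnamed, with r of 0.82 (0.42 in sialyllactose and 0.90 in control retinas).

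The order of companions in sialyllactose retinas was not that in control retinas. Over 5709 genes, the r with SAG in sialyllactose retinas correlated with the r in control retinas at 0.03, and for CNGA1 at -0.09. The same measure had a median of 0.05 over all genes, with 5th and 95th percentiles of -0.11 and 0.22, so that low values were common. The 8 genes nearest to SAG in sialyllactose retinas had a median r of -0.36 in control retinas, where 3 of 8 were positive, and for CNGA1 the median was -0.27 with 1 of 8 positive. Over all genes the median r in control retinas was 0.04 with SAG and -0.04 with CNGA1. The 8 nearest in control retinas had a median r in sialyllactose retinas of 0.38 for SAG and 0.19 for CNGA1, with 6 of 8 positive for each. There the median over all genes was 0.05 with SAG and -0.04 with CNGA1. None of these genes ranked among the nearest 100 in the other diet, for either gene and in either direction. With 100 places among 5709 genes, 8 unrelated genes would seldom hold one, so this count says little about SAG or CNGA1. This reading of a list made in 1 diet in the other diet was chosen after the data were seen.

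**Figure D4:**
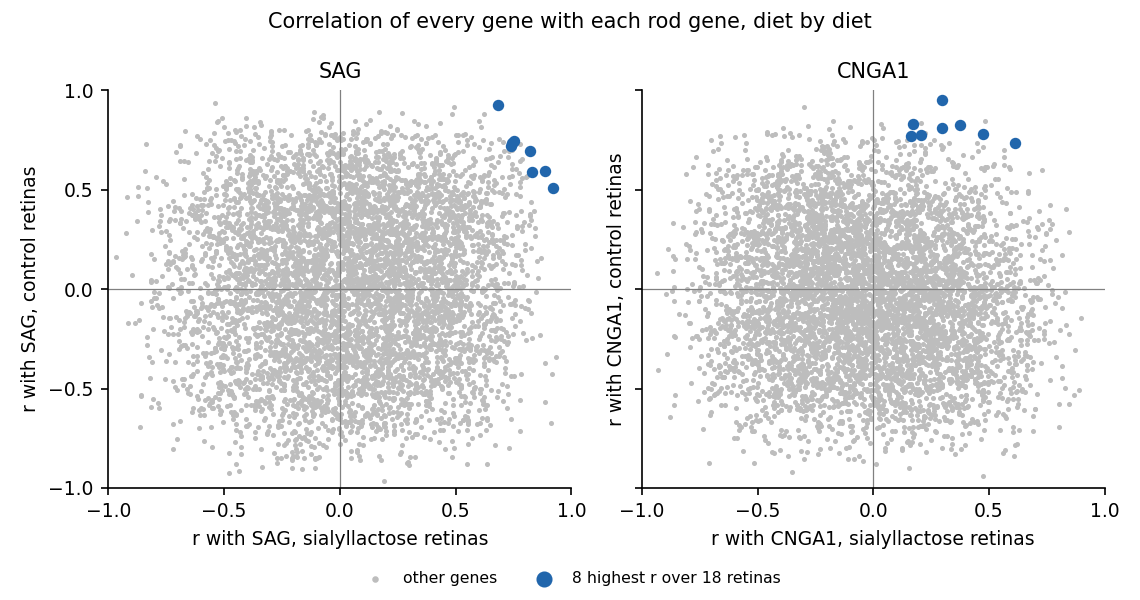
For each of 5709 genes, its Pearson r with SAG or with CNGA1 in sialyllactose retinas (horizontal axes) and in control retinas (vertical axes), with the 8 genes of highest r over 18 retinas in blue. The clouds have no slope, with correlations across genes of 0.03 for SAG and -0.09 for CNGA1; genes are not independent replicates.

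Few other genes of the rod cascade carried a single symbol in the annotation, and those that did not are not analysed here. Of 26 listed rod phototransduction and disc genes 2 were measured, and both had higher means in sialyllactose retinas without passing the test. GNB5, a subunit of the complex that speeds the turn-off of transducin, averaged 7.76 ± 0.16 in sialyllactose and 7.73 ± 0.19 in control retinas (SD, n = 9 each). These are values of the brighter of 2 tested GNB5 probe sets, and only 1 of the 2 was higher in sialyllactose retinas. ABCA4, the disc membrane transporter of retinoid compounds, averaged 2.21 ± 0.09 in sialyllactose and 2.16 ± 0.19 in control retinas. Their r with SAG was -0.13 for GNB5 and 0.03 for ABCA4, and with CNGA1 it was -0.11 for GNB5 and 0.39 for ABCA4. The r of ABCA4, one of the dimmer tested probe sets, with CNGA1 was -0.001 in sialyllactose and 0.47 in control retinas. Of the 9 listed relatives of CNGA1 in the cyclic nucleotide gated and HCN channel family, 0 were measured.

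Of the 3 other listed arrestins, 2 were measured. ARR3, the cone arrestin, averaged 9.69 ± 0.21 in sialyllactose and 9.57 ± 0.34 in control retinas (SD, n = 9 each; difference 0.12, limma adjusted p 0.905). ARRB2, beta-arrestin 2, which desensitises many receptors outside the retina, averaged 3.65 ± 0.20 in sialyllactose and 3.76 ± 0.11 in control retinas (difference -0.10, limma adjusted p 0.862). Neither passed the test, and their r with SAG over 18 retinas was 0.22 for ARR3 and 0.45 for ARRB2.

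Cone genes had higher means in sialyllactose retinas in 4 of 4 measured members of 11 listed, and none passed the test. The median difference was 0.09, against -0.01 over all tested probe sets, of which 46.6% were higher. They were ARR3, OPN1SW, the short-wavelength cone pigment (difference 0.06), PDE6C, the cone phosphodiesterase catalytic subunit (0.03), and GRK7, the cone opsin kinase (0.18). PDE6C was near the dim end of the tested probe sets, with means of 1.67 in sialyllactose and 1.64 in control retinas, so its sign says little. Of 10 listed photoreceptor transcription factors 3 were measured and none passed: NEUROD1 had a difference of 0.07, MEF2D of -0.03 and RORA of -0.23.

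Among 11 listed partners of arrestin or of the channel 6 were measured, 3 higher and 3 lower in sialyllactose retinas, none past the adjusted threshold. ENO1, a glycolytic enzyme that binds rod arrestin, averaged 9.07 ± 0.18 in sialyllactose and 9.28 ± 0.16 in control retinas (SD, n = 9 each; difference -0.21, limma p 0.016, adjusted p 0.753). AP2B1, a clathrin adaptor subunit that binds beta-arrestins, averaged 5.87 ± 0.05 in sialyllactose and 5.98 ± 0.07 in control retinas (difference -0.11, limma p 0.017, adjusted p 0.753). These are values of the brighter of 2 tested AP2B1 probe sets, and 1 of the 2 was higher in sialyllactose retinas. NSF, a membrane fusion ATPase, had a difference of 0.04, CLTC, the clathrin heavy chain, of 0.01, and the calmodulin genes CALM2 and CALM3 of 0.03 and -0.07. Of their tested probe sets, 2 of 3 for NSF, 1 of 2 for CLTC and 2 of 6 for CALM3 were higher in sialyllactose retinas. Calmodulin lowers the sensitivity of the rod channel to cyclic GMP by binding its other subunit. The r of the partners with CNGA1 ran from -0.46 for NSF to 0.50 for CLTC, and with SAG from -0.30 for ENO1 to 0.12 for CALM2.

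Markers of other cell types of the eye were read beside these genes. Mueller glia markers had lower means in sialyllactose retinas in 7 of 8 tested genes (median difference -0.13), endothelial and pericyte markers in 8 of 8 (-0.19), microglia markers in 3 of 4 (-0.15), pigment epithelium markers in 4 of 6 (-0.12) and amacrine markers in 4 of 5 (-0.02). Over all tested probe sets 46.6% were higher and the others lower. Each gene was counted at its brightest probe set. Genes counted as lower in the Mueller glia, endothelial and pericyte, and amacrine lists included some with another tested probe set that was higher. Ganglion cell markers were higher in 2 of 4, and no gene of any list passed the adjusted threshold. The list mean for Mueller glia ran from 7.29 to 7.70 in sialyllactose and from 7.40 to 7.83 in control retinas, and that for endothelium and pericytes from 3.08 to 3.64 in sialyllactose and from 3.25 to 3.66 in control retinas. The part of these shifts in the SAG and CNGA1 values was not tested.

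Over the 18 retinas, 12 list means and 3 technical measures were set against each rod gene, and with the pair itself these were the 31 relations. The interferon response list is not among the 12, because its mean fell into separate clusters of retinas, so the counts below do not cover it. None of the 31 relations had an unadjusted p under 0.05, and the smallest adjusted p was 0.698 for r and 0.599 for rho. For SAG, r ran from -0.38 with immediate early genes to 0.30 with pigment epithelium markers. For CNGA1 it ran from -0.43 with Mueller glia markers (permutation p = 0.082, rho -0.42, permutation p = 0.091, r of -0.39 without the 2 farthest retinas) to 0.18 with endothelial and pericyte markers. Amacrine markers also had r of -0.43 with CNGA1 (permutation p = 0.057, rho -0.34, permutation p = 0.203), which was -0.19 without the 2 farthest retinas. The sign of r was the same in both diets for 5 of 12 lists with SAG and 6 of 12 with CNGA1.

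Within a diet the same relations, again without the interferon response list, were tested by exact permutation of 9 retinas. For Pearson's r the smallest p was that of SAG with Mueller glia markers in control retinas, with r of 0.76 (exact p = 0.0216, adjusted p = 0.461), rho of 0.70 (exact p = 0.0433, adjusted p = 0.447) and r of 0.86 without the 2 farthest retinas. In sialyllactose retinas the same r was -0.11. The partner list went with SAG at r of -0.71 in sialyllactose retinas (exact p = 0.0301, adjusted p = 0.461; rho -0.79, exact p = 0.0156, adjusted p = 0.332; r of -0.81 without the 2 farthest retinas), against 0.36 in control retinas. Of the 62 relations 6 had an unadjusted exact p under 0.05 for r and 6 for rho, 0 passed after adjustment, and the differences between diets were not tested.

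**Figure D5:**
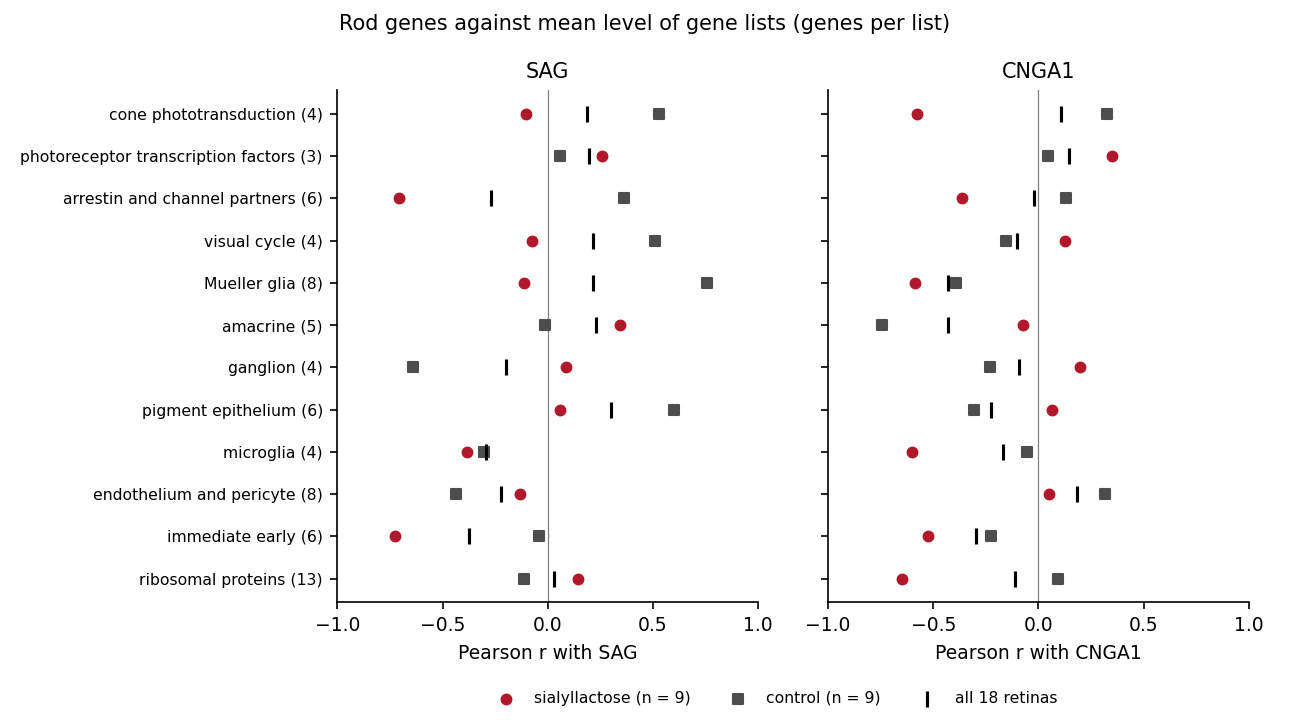
Pearson r (horizontal axes) of SAG and of CNGA1 with the mean level of 12 gene lists, number of genes in brackets, in sialyllactose retinas (circles), control retinas (squares) and over all 18 retinas on deviations from the diet mean (ticks). The ticks lie between -0.43 and 0.30, and no relation passed after adjustment.

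The arrays themselves were alike, with correlations over the tested probe sets of 0.981 to 0.992 and 0 identical pairs. The first principal component of the deviations had r of 0.30 with SAG and -0.39 with CNGA1, and the array median 0.11 with SAG and -0.44 with CNGA1. The difference between 3′ and 5′ control probe sets, a measure of RNA integrity and labelling, had r of -0.15 with SAG and -0.37 with CNGA1. These relations are among the 31, and none passed. In control retinas alone, SAG went with the first principal component at r of 0.65 (exact p = 0.0446, adjusted p = 0.461) and rho of 0.83 (exact p = 0.00827, adjusted p = 0.332), the smallest exact p for rho among the 62, and at r of 0.84 without the 2 farthest retinas. In sialyllactose retinas the same r was -0.03. CNGA1 went with the array median in control retinas at r of -0.60 (exact p = 0.0856, adjusted p = 0.536) and rho of -0.77 (exact p = 0.0214, adjusted p = 0.332), with r of -0.42 without the 2 farthest retinas, against r of -0.05 in sialyllactose retinas. The part of these measures in the values of either gene was not tested beyond the settings with another scaling or the component as a covariate. The array median averaged 3.87 ± 0.01 in sialyllactose and 3.88 ± 0.02 in control arrays (SD, n = 9 each, exact permutation p = 0.032), and the 3′ to 5′ difference 1.96 ± 0.19 in sialyllactose and 1.90 ± 0.17 in control arrays (exact permutation p = 0.453).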

How the data were processed

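Retinal RNA was measured on 18 Affymetrix pig arrays, 9 per diet, with groups taken from the sample titles. The deposited values are on a log2 scale, 1 for each array and probe set. Affymetrix Expression Console and RMA made them per the submitters' processing notes, and the settings are not given in the sources used here. RMA in general puts all arrays on 1 distribution and shrinks differences of dim probe sets, and the values carry no detection call. The number of arrays limits the precision, and p-values measure the spread between piglets. Of 24123 probe sets, 124 controls and the 30% dimmest of the rest (7200) were left out, which left 16799. The platform annotation gave a single symbol for 10099 probe sets, several for 198 and none for 13826. The gene identifiers of SAG and CNGA1 were found in a RefSeq gene table with the same symbols. No coordinates are given, because no genome build is named for it.

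Sialyllactose minus control was tested with limma 3.58.1 in R 4.3.3 (lmFit and eBayes, no covariates) and Benjamini-Hochberg adjustment over all tested probe sets, with a threshold of 0.05. Confidence intervals are 95%. Where a gene had several tested probe sets, the brightest on average stood for it. Correlations used deviations from the diet mean, with 100000 permutations within diet or all orders of 9 retinas. The step was tested on simulated data. The genes named are SAG, CNGA1, the 8 highest and 4 lowest r with each, and the measured members of the rod, cone, transcription factor, arrestin, channel and partner lists. The other lists were Mueller glia, bipolar, amacrine, horizontal, ganglion, pigment epithelium, microglia, endothelium and pericyte, lens and cornea, red blood cell, visual cycle, interferon response, immediate early and ribosomal protein genes. Members and lists were chosen with earlier results of these data known. Alternatives were other filters, scalings, weights, priors, thresholds and ranks, a covariate, a replicate block and leaving out each array.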

Additional observations from a re-analysis of the deposited data

Results flagged for a closer look

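Neither SAG nor CNGA1 held a retina that stood apart from its group by Dixon's criterion, which asks whether the gap of the lowest or highest of 9 values to its neighbour exceeds the 95% critical share of the range. Of 84 groups of values (42 genes named or listed, each in 2 diets) 3 held such a retina, and chance gives about 1 in 20 groups. USP28, near CNGA1 in the ranking, had its lowest sialyllactose value in replicate 2 at 4.92, against 5.17 for the next, a gap of 0.537 of the range. ABCA4 had its highest control value in replicate 7 at 2.59, against 2.19 for the next, a gap of 0.586. ARRB2 had its lowest control value in replicate 8 at 3.51, against 3.69 for the next, a gap of 0.531.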

How the results depend on the processing

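The number of probe sets passing the diet test was 0 under every alternative run. The filters, the prior, the replicate block, the component as a covariate and the exact permutation cannot move the size of a difference. Where the size could move, the SAG difference was -0.084 with arrays centred on their medians, -0.045 after quantile normalization and -0.089 with array weights. With 1 retina left out it was -0.13 to -0.06. The CNGA1 difference was 0.30 with centred arrays, after quantile normalization and with array weights, and 0.18 to 0.36 with 1 retina left out. The correlation of SAG and CNGA1 turned positive at 0.021 with arrays centred on their medians, 0.072 after quantile normalization and 0.10 with the first principal component as a covariate, and ran from -0.15 to 0.10 with 1 retina left out (6 of 18 positive); the cause was not tested. The spread ratio ran from 1.25 to 1.79 for SAG and 0.354 to 0.647 for CNGA1 with 1 retina left out, and none passed. With the interferon response list left out, no list relation passed under any setting run, with 0 to 2 at an unadjusted p under 0.05. Of the 8 genes nearest to SAG, 3 stayed after quantile normalization, 4 with the covariate and 2 by Spearman's rho, and for CNGA1 6, 3 and 4. Without sialyllactose replicate 8, 1 stayed for SAG, and without control replicate 4, 2 stayed for CNGA1.

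Diets share replicate numbers, but the labels do not say what a number marks. Same-numbered retinas correlated at -0.11 to 0.16 over probe sets, 3 of 9 pairs above 0.1 and 3 of 9 closest to their own number, so the numbers were not taken to pair them. With a replicate block 0 probe sets passed, SAG differed by -0.10 and CNGA1 by 0.29 (limma p 0.00668, adjusted p 0.725; higher in sialyllactose in 9 of 9 same-numbered retinas), and the pair had r of -0.02.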

Other observations

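CNGA1 was alike in retinas that share a replicate number across the diets, with r of 0.81 over 9 numbers (exact permutation p = 0.00808, adjusted over both genes p = 0.0162), rho of 0.88 (exact permutation p = 0.00308) and r of 0.68 without the 2 farthest numbers. For SAG the same r was 0.07 (exact permutation p = 0.846) and rho -0.25 (exact permutation p = 0.512). Over all 16799 probe sets the median of this r was 0.05, and 97 probe sets (0.577%) had an r at least as high as that of CNGA1. The relation was noticed after the data were seen, so its p-values overstate how unusual it is. The adjustment covers SAG and CNGA1 only, not the other probe sets.

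The mean of 11 interferon response genes fell into separate clusters of retinas, so it was not correlated with SAG or CNGA1. It was 4.53 and 4.65 in sialyllactose replicates 4 and 7, where SAG was 10.54 in each, and 3.56 in replicate 3, where SAG was 10.33, while replicate 8, with the lowest SAG of 10.25, had an interferon mean of 2.32. Control replicates 3, 5, 6 and 8 had interferon means of 3.52, 3.41, 3.79 and 3.42 and SAG values of 10.56, 10.55, 10.51 and 10.59, the lowest 4 of the control group, with CNGA1 values of 3.27, 3.44, 3.74 and 3.35. The other control retinas had interferon means of 2.25 to 2.66 and SAG values of 10.69 to 10.81. Their CNGA1 values were 3.21, 2.79, 2.32, 3.65 and 2.91 in replicates 1, 2, 4, 7 and 9. The share of all probe sets that split the control retinas as SAG did was not counted, and no relation with the interferon mean was tested. In sialyllactose replicates 3, 4 and 7 CNGA1 was 3.33, 3.23 and 3.66, and in the other sialyllactose retinas it lay between 3.23 and 3.88. Between the diets, 8 of the 11 interferon genes were higher and 3 lower in sialyllactose retinas, and none passed the limma test.

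Of the lists not described above, none had a gene that passed. Visual cycle genes were higher in sialyllactose retinas in 1 of 4, horizontal cell markers in 1 of 2, immediate early genes in 3 of 6 and ribosomal protein genes in 1 of 13, and the single measured bipolar, lens and red blood cell markers (PRKCA, CRYBB1 and HBB) were lower. Over all tested probe sets 46.6% were higher. These counts use the brightest probe set of a gene, and several ribosomal protein genes counted as lower had another tested probe set that was higher.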
